A study of Bos grunniens with 6 samples.

Results

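The genes described here carry the enzymes that attach ubiquitin and its relative SUMO, the deubiquitinases that take ubiquitin off, and the subunits of the proteasome and the COP9 signalosome, together with the ATPase VCP and its UBX-domain cofactors. They were chosen by gene symbol from the annotated m6A peak list of cattle-yak testis: symbols that begin with USP and a digit, OTU, UCHL, UBE2, UBE3, UBE4, UBA and a digit, PSMA to PSMG, SENP, SUMO, PIAS, COPS or UBXN, and BAP1, ATXN3 and VCP, with UBE2M and UCHL1 left out. The rule gave 201 of the 16186 listed peaks, on 111 of the 8986 gene identifiers with a peak. These 111 identifiers carry 104 symbols, because 7 symbols are listed on more than 1 identifier.

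The series measured m6A, a methyl mark on adenosines of RNA, by MeRIP-seq, in which fragmented poly(A) RNA is pulled down with an antibody against m6A and set against the RNA from which it was drawn. All libraries come from 1 group, testis of healthy cattle-yaks (hybrids of cattle and yak, whose males are sterile) aged 5 years, obtained by castration. An IP and an input library were made for each of 3 animals, named TES5, TES6 and TES7, which gives 6 libraries. The peaks form a single list for the 3 animals, with no score and no value per animal. FPKM (fragments scaled to the length of the transcript and the size of the library) was available for the 3 input libraries, and it measures RNA level and not methylation. With 1 condition and a pooled list, no test between groups was possible, so what follows is a description, and the intervals given (95%, Wilson) cover counting error only, since genes and peaks are not replicates.

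Ubiquitin is passed from an activating enzyme (E1) to a conjugating enzyme (E2) and, with the help of a ligase (E3), onto a target protein. Chains of ubiquitin can send the target to the proteasome, a barrel of proteolytic subunits (the 20S core) capped by a particle that binds, unfolds and feeds in the target (the 19S particle), while deubiquitinases remove or trim the chains. In the testis the pathway is known for its work on histones, on meiotic chromosomes and in the removal of proteins as spermatids mature.

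In bulk tissue, fewer cells of a type and less RNA per cell cannot be told apart, and this holds for every FPKM given here. Among the cell type markers looked up, those with a listed symbol were 3 of 8 for Sertoli cells, 1 of 6 for Leydig cells, 4 of 4 for peritubular myoid cells, 4 of 8 for spermatogonia, 4 of 7 for spermatocytes and 0 of 7 for spermatids. Symbols are listed only for genes with a peak, so the level of a marker without a peak could not be read, and the spermatid markers could not be checked. Markers of testicular cells were present: the Sertoli gene SOX9 had 26.7, 27.5 and 28.4 FPKM in TES5, TES6 and TES7, and the Leydig gene STAR had 100.2, 108 and 112 FPKM.

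The share of the pathway's genes that carry a peak differed by role. Of 16457 protein-coding symbols named in RefSeq for the yak (assembly Bosgru_T2T1.0, used for names alone), 45.2% were listed with a peak. Of the 195 named symbols that the rule covers, 104 were listed, or 53.3% (46.3% to 60.2%). Deubiquitinases stood highest among the large groups, with 44 of 64 symbols (68.8%, 56.6% to 78.8%), and the USP family alone with 36 of 48 (75%, 61.2% to 85.1%). Proteasome genes stood lowest, with 14 of 48 (29.2%, 18.2% to 43.2%). The intervals of these groups do not meet, and the background lies between them.

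**Figure D1:**
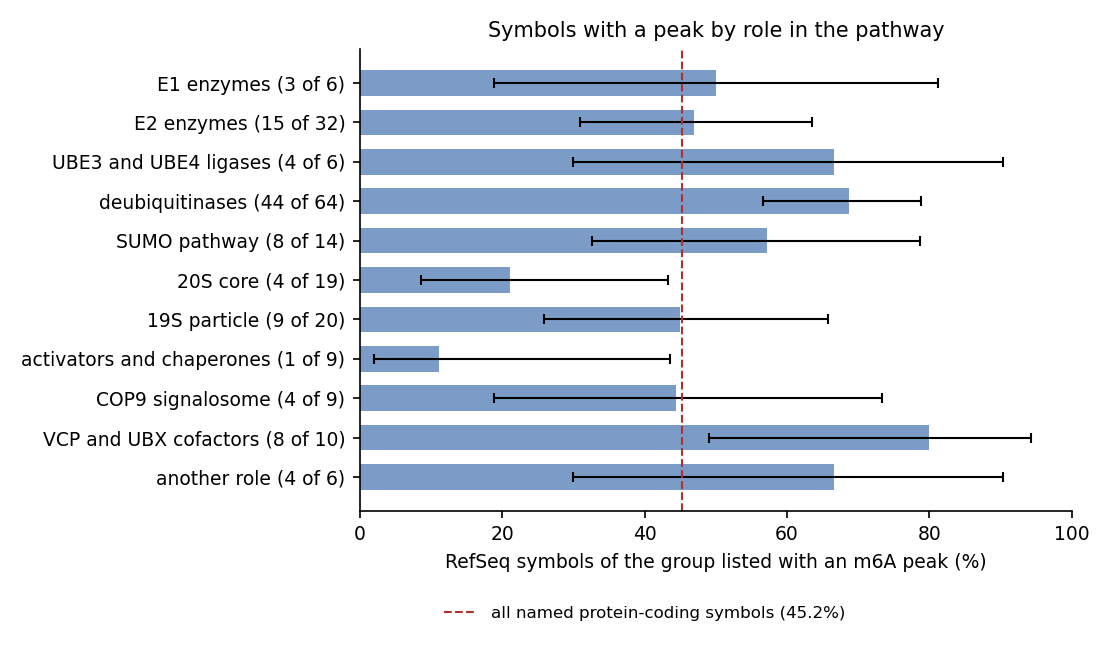
Share of RefSeq symbols listed with an m6A peak (horizontal axis, %) in each role group (vertical axis, with the counts). Bars give the share and whiskers the Wilson 95% interval, and the dashed line marks the 45.2% of all named protein-coding symbols. The intervals of the deubiquitinases and of the VCP and UBX cofactors lie above the line, and those of the 20S core and of the activators and chaperones below it. VCP is counted through an identifier without a gene ontology term.

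Within the proteasome, 4 of 19 genes of the 20S core had a peak (21.1%, 8.51% to 43.3%). These were 3 of the 8 PSMA genes of the outer rings (PSMA3, PSMA5 and PSMA6) and 1 of the 11 PSMB genes of the inner, catalytic rings (PSMB7). PSMB5, the main chymotrypsin-like subunit, the immunoproteasome subunits PSMB8, PSMB9 and PSMB10, and the germ cell subunit PSMA8 were not listed. Counted by PSMC and PSMD symbols, the 19S particle had 9 of 20 genes with a peak (45%, 25.8% to 65.8%), close to the background share. Not all of the 9 are subunits of the particle, and PSMD5, for example, is an assembly chaperone. Of the 9 PSME, PSMF and PSMG genes for activators, an inhibitor and assembly chaperones, only PSME4 was listed (11.1%, 1.99% to 43.5%). It encodes the activator PA200 known from histone removal in spermatids.

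Among E1 enzymes, 3 of 6 symbols had a peak, among them UBA3, which activates NEDD8, and UBA6, which activates ubiquitin and FAT10. UBA1, the main ubiquitin E1, and UBA2, a subunit of the SUMO E1, were not listed. Among E2 enzymes, 15 of 32 symbols had a peak (46.9%, 30.9% to 63.6%), and UBE2A and UBE2B, the RAD6-type E2 enzymes that act on histones, were not among them. The SUMO pathway had 8 of 14 symbols listed, made up of 5 of 7 SENP proteases and 3 of 4 PIAS ligases (SENP8, counted here by its name, is a protease for NEDD8 and not for SUMO), while none of the 3 SUMO modifiers was listed. COP9 signalosome genes reached 4 of 9, VCP with its UBX cofactors 8 of 10 (80%, 49.0% to 94.3%), and the UBE3 and UBE4 ligases 4 of 6. The 8 include VCP, whose listed identifier has 1 exon and no gene ontology term, so this share rests in part on a doubtful identifier. For comparison, ligases of the RNF and TRIM families had 67 of 132 symbols listed (50.8%, 42.3% to 59.1%). A wider list of the pathway's other genes had 49 of 80 (61.3%, 50.3% to 71.2%). A symbol without a peak has no identifier in the files, so its transcript length and FPKM could not be set beside those of listed genes, and the part of both in these shares was not tested.

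The symbols need care, since the identifier behind a symbol did not always carry the terms of that gene. Gene ontology terms naming ubiquitin, the proteasome, SUMO, NEDD8, UFM1 or the COP9 signalosome stood on 57 of the 111 identifiers, and 54 had other terms or none. A term of RNA-directed DNA polymerase activity stood on 21 of the 104 member identifiers with any term (20.2%, 13.6% to 28.9%), against 16.7% of all such identifiers. OTUD7A, UBE2V1, UCHL3, USP16, USP33, USP48 and USP49 each sat on a pair of identifiers, although RefSeq names 1 gene for each. For USP16, the identifier ENSBGRG00000000077 had deubiquitinase terms, 2 peaks and 12.1 ± 1.06 FPKM (SD, n = 3), while ENSBGRG00000000078 had terms of the chaperonin-containing T-complex, 1 peak and 94.1 ± 8.76 FPKM. In RefSeq, USP16 lies next to CCT8, a subunit of that chaperonin. For USP33, ENSBGRG00000002986 had terms of the Ada2/Gcn5/Ada3 complex, and the neighbour of USP33 in RefSeq is ZZZ3, a subunit of an acetyltransferase complex. For USP48, ENSBGRG00000001116 had deubiquitinase terms and 9.0 ± 0.87 FPKM, and ENSBGRG00000003260, whose listed transcript spans 544 bp, had transcription factor terms and 123 ± 13.7 FPKM. Both identifiers with the highest FPKM among all members were therefore ones whose terms do not name ubiquitin. They are counted in the values of the deubiquitinase group, and the main of these values are also given with 1 identifier per symbol, which leaves both out.

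The peaks lay mostly in the class the authors named exon. Of the 201 peaks, 147 (73.1%, 66.6% to 78.8%) fell in the exon class, against 70.3% of the whole list. The 3' UTR class held 32 peaks (15.9%, 11.5% to 21.6%), against 20.8%, and the 5' UTR class 22 (10.9%, 7.34% to 16.0%), against 8.82%. In each class the members' interval holds the value of the whole list. Among peaks of 1000 bp or less this was not so for the 5' UTR class, which held 12 of the members' 70 (17.1%, 10.1% to 27.6%) against 7.46% of all such peaks. Seen along the listed transcript, introns included, 116 of the 193 peak centres inside it lay in its final 33.3% (60.1%, 53.1% to 66.8%), against 55.7% of all peaks. On deubiquitinase transcripts 69 of 107 did so (64.5%, 55.1% to 72.9%), and on those of the OTUD genes 10 of 12. With 1 identifier per symbol the deubiquitinases had 64 of 99 (64.6%).

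Widths set the members apart more than classes did. A width here is the stretch of genome from the start to the end of a peak, introns included. Among the members' peaks, 70 of 201 measured 1000 bp or less (34.8%, 28.6% to 41.6%), against 49.8% of the whole list, and the median width was 2152 bp against 1022 bp. The widest and the narrowest peaks were not set apart in this way. Peaks over 10000 bp made up 13.9% (9.82% to 19.4%), against 14.4%, and those of at most 300 bp 21.4% (16.3% to 27.6%), against 26.4%. Widths of 1000 bp or less were found for 50 of 112 peaks on deubiquitinases (44.6%, 35.8% to 53.9%), 6 of 22 on E2 enzymes (27.3%, 13.2% to 48.2%) and 4 of 18 on proteasome genes (22.2%, 9.0% to 45.2%). The RNF and TRIM ligases had 46.3%. By class, the members' median width was 2260 bp in the exon class (all peaks 1333 bp), 1538 bp in the 3' UTR class (447 bp) and 548 bp in the 5' UTR class (1985 bp), so the order of members and all peaks turned round in the 5' UTR class, which holds 22 peaks here. The longest listed transcript of a member spanned 39273 bp at the median, against 28394 bp over all identifiers with a peak, and the part of transcript length in the widths was not tested.

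**Figure D2:**
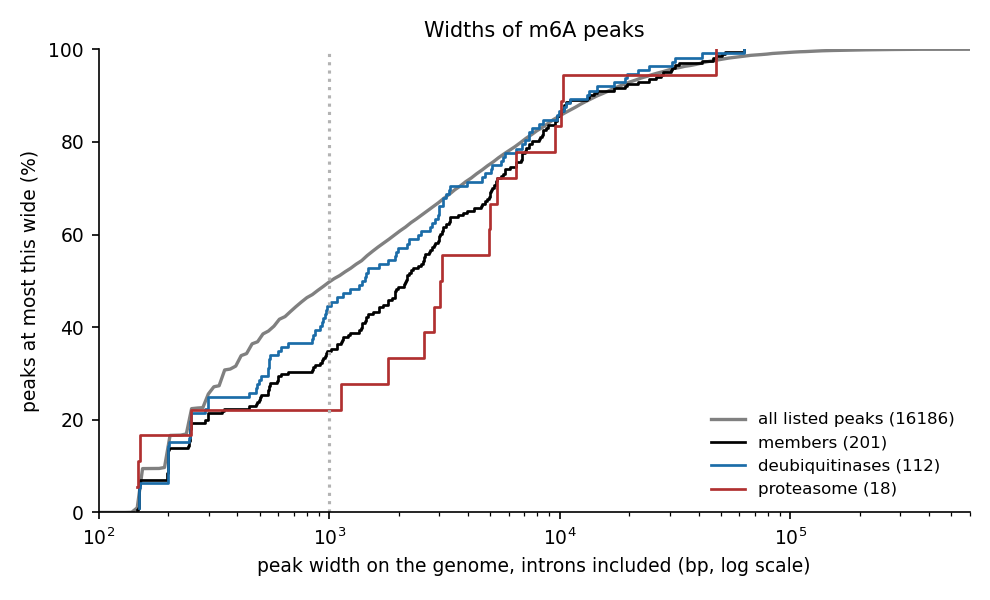
Cumulative share of peaks (vertical axis, %) by peak width (horizontal axis, bp on a log scale) for all 16186 listed peaks, the 201 peaks of the members, the 112 on deubiquitinases and the 18 on proteasome genes. At the dotted line, 1000 bp, the curves stand at 49.8%, 34.8%, 44.6% and 22.2%, and they come together near 10000 bp.

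Peaks at the extremes of width belonged to different roles. The widest, 62973 bp, was a 5' UTR class peak on the USP33 identifier with terms of the Ada2/Gcn5/Ada3 complex. It was followed by peaks on UBE2K (52061 bp, chromosome 6 from 64716316 to 64768376, annotated to the first exon of 7), an E2 that builds K48-linked chains, and UBE2H (50488 bp, 5' UTR class), the E2 of the CTLH ligase. PSMD14, the deubiquitinase of the 19S particle, had a peak of 47763 bp on chromosome 2 that covered 42.1% of its listed transcripts, and PIAS1, a SUMO ligase, one of 46031 bp on chromosome 11. The identifiers of UBE2K, UBE2H, PSMD14 and PIAS1 all carried a term of RNA-directed DNA polymerase activity and no term of the pathway. The narrowest peaks measured 147 bp on PSMD7 and 148 bp on PSMD5, a 19S subunit and a 19S assembly chaperone, both in the last exon. For 8 of the 201 peaks the centre lay outside the listed transcript. The peak of UBE2H was among them, with 63 bp inside the transcript and the rest before its start. Picked out after their values were seen, SENP7 had 52 bp of a 30398 bp peak inside, COPS7B 96 bp of 1938 bp, and USP27X 0 bp of 541 bp.

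Exon class peaks on E2 genes were often annotated to the first exon. Counting transcripts of at least 3 exons, this held for 6 of 13 such peaks on E2 genes (46.2%, 23.2% to 70.9%), against 13.2% of the members' peaks together, 12.4% of the whole list and 3 of 81 (3.70%, 1.27% to 10.3%) on deubiquitinases. UBE2K, UBE2G2 (an E2 of degradation at the endoplasmic reticulum) and UBE2J2 (a membrane-bound E2) gave 3 of these. Their peaks covered 67.5%, 33.7% and 57.2% of the listed transcript, so the label does not place the mark within the first exon. Those on UBE2V1 (26104 bp) and UBE2J1 (4265 bp) were wide too, while that on UBE2O was 250 bp. The last exon held 7 of 136 such peaks of the members (5.15%, 2.52% to 10.2%), against 11.4% of the whole list. Split by width, the shares were 16.7% (7.87% to 31.9%) against 25.3% for peaks of 1000 bp or less and 1% (0.177% to 5.45%) against 1.81% for wider ones, so within each width the members' interval held the value of the whole list.

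The number of peaks per gene also went by role. A single peak was found on 58 of 111 identifiers (52.3%, 43.0% to 61.3%), against 54% of all identifiers with a peak, and the mean was 1.81 against 1.80. Behind this near-equality stood opposite groups. Deubiquitinases had 2.24 peaks per identifier and a single peak on 18 of 50 (36%, 24.1% to 49.9%), whereas proteasome genes had 1.29 and a single peak on 11 of 14 (78.6%, 52.4% to 92.4%), and E2 enzymes had 1.38. With 1 identifier per symbol, the deubiquitinases had 2.34 peaks and a single peak on 14 of 44 (31.8%).

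At least 4 peaks were listed on 10 members (9.01%, against 7.92% of all identifiers), and 8 of these 10 were USP genes. USP genes made up 36 of the 104 member symbols. USP34, which acts on axin in Wnt signalling, USP38 and USP25, an enzyme of endoplasmic reticulum degradation and immune signalling, had 5 peaks each. USP4, USP15 (both of TGF-beta signalling, and close relatives), USP35, USP37 and USP54 had 4, as did SENP6, which trims SUMO chains, and UBE3A, the ligase of Angelman syndrome. Merging peaks within 100 bp of each other left 190 of the members' 201 peaks. It joined the 3 exon class peaks of UBE3A (669065 to 677245, 677343 to 678720 and 678819 to 679064), so UBE3A then fell below 4 peaks. Their mean FPKM ran from 3.94 ± 0.199 (SD, n = 3) for USP35 to 44.5 ± 1.36 for USP4. The identifier of USP35 carried phosphomannomutase terms and no deubiquitinase term.

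These 10 genes differed in where the peaks sat. All 5 peaks of USP34 were in the exon class, from exon 14 to exon 68 of 80 on the longest transcript and exon 5 of 6 on a shorter one, and the widest spanned chromosome 9 from 83053426 to 83063808 (10383 bp). USP25 had its 5 in exons 3, 14, 18, 21 and 25 of 26, among them a peak of 30599 bp. USP38 had peaks in all 3 classes, with a pair of 5' UTR class peaks of 199 and 546 bp at its start, a pair of 248 and 249 bp annotated to exon 9 of 10, and a 3' UTR class peak of 6444 bp on chromosome 16 from 16164269 to 16170712. On UBE3A a 5' UTR class peak of 28088 bp covered 46.8% of the listed transcript, and 3 exon class peaks lay in exons 4 and 5 of 12. Across the 10 genes, peaks covered between 4.53% (USP35) and 63.1% (UBE3A) of the listed transcripts, against a median of 19% for the members.

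**Figure D3:**
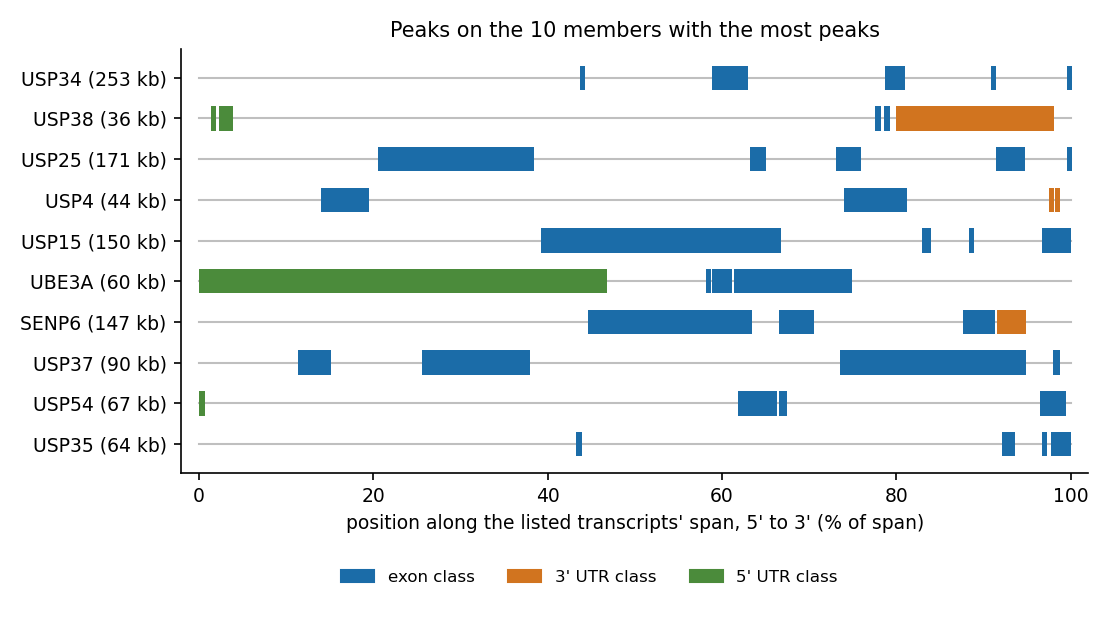
Peaks of the 10 members with at least 4 peaks, drawn along the span of their listed transcripts from the 5' to the 3' end (horizontal axis, % of span), with colour for the annotation class. The narrowest peaks are drawn wider than scale so that they can be seen. USP34, USP25, USP15, USP37 and USP35 hold exon class peaks only, USP38 holds all 3 classes, and the first peak of UBE3A fills 46.8% of the span.

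Peak number was set beside FPKM and transcript span. Spearman's rho between peak number and mean FPKM was -0.17 over the 111 identifiers, and that between peak number and transcript span was 0.12, against 0.29 over all identifiers with a peak. For the 57 members with terms of the pathway, an alternative added after seeing the data, rho with transcript span was 0.32, so the gap to all identifiers was not kept. These are descriptions across genes of the same 3 libraries and the same list, with no test.

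The members were mostly well expressed. FPKM was at least 1 in every input library for 107 of 111 identifiers (96.4%, 91.1% to 98.6%), against 86.9% of all identifiers with a peak and an FPKM, and no member was listed at 0. The exceptions were UBXN2A, VCP and an identifier each of OTUD7A and UCHL3. The median of the members' mean FPKM was 12.8, against 7.36 over all identifiers with a peak and 8.69 for the RNF and TRIM ligases. By role, the medians were 28.6 for proteasome genes, 28.6 for COP9 signalosome genes, 20.9 for E2 enzymes, 12.1 for UBE3 and UBE4 ligases, 10.9 for deubiquitinases (12.2 with 1 identifier per symbol), 9.75 for the SUMO pathway, 8.52 for E1 enzymes and 7.74 for VCP and UBX cofactors. Among the listed genes, those of the proteasome thus joined fewer peaks with higher FPKM, and the deubiquitinases more peaks with lower FPKM.

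**Figure D4:**
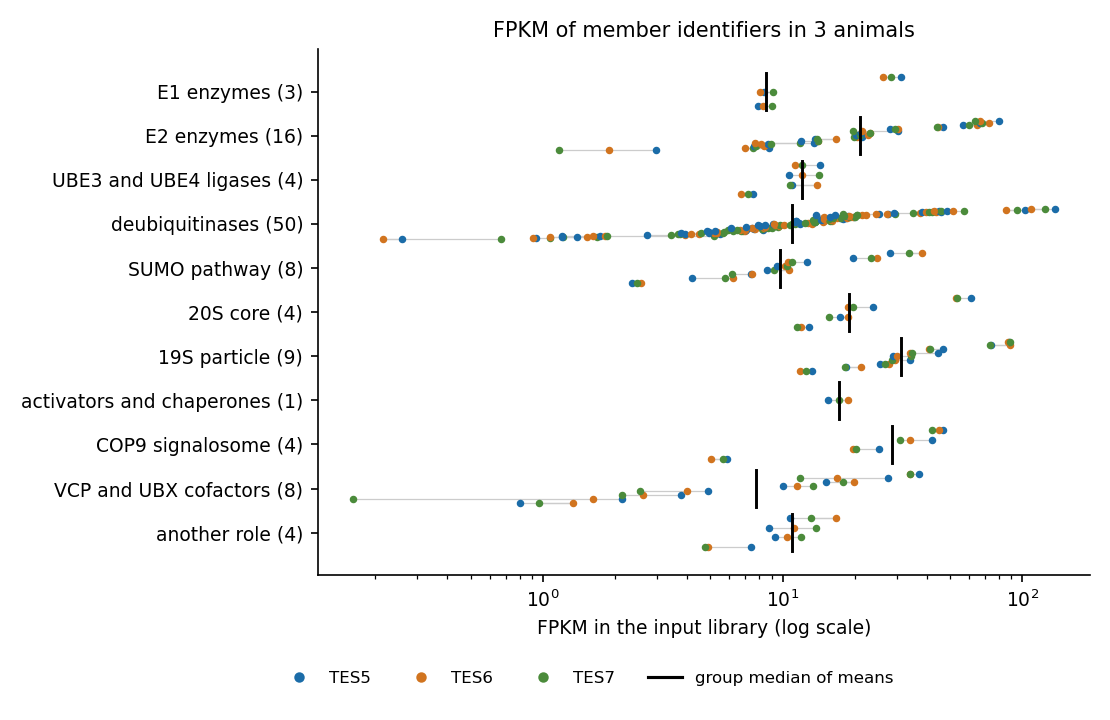
FPKM in the input library (horizontal axis, log scale) of the 111 member identifiers by role group (vertical axis, with the number of identifiers), with 1 point per animal and a grey line joining the 3 animals of an identifier. The black bars mark the median of the identifiers' means, 28.6 for COP9 signalosome genes and 10.9 for deubiquitinases, and VCP shows the longest line, from 0.161 to 2.13.

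Among proteasome genes PSMC3 and PSMC2, both ATPase subunits of the 19S base, came first, while PSMC6, the other ATPase gene with a peak, had 30.6 ± 2.8 FPKM (SD, n = 3). PSMC3 had 87.7, 87.3 and 88.9 FPKM in TES5, TES6 and TES7, and its coefficient of variation of 0.969% was the smallest among the members with a mean FPKM of at least 10. This ranking used FPKM as given, not rescaled to equal library sums, which were 302365, 280940 and 285927. A coefficient this small can change with such rescaling. PSMC2 had 73.9, 88.5 and 73.2 FPKM, so TES6 stood above the other animals and its range met that of PSMC3. PSMA5 of the 20S core followed with 61.0, 52.9 and 53.1 FPKM. Levels were lower for PSMD7 37.7 ± 5.96 (SD, n = 3), PSMD5 26.6 ± 1.10, PSMD14 19.3 ± 1.75, PSME4 17.1 ± 1.6 and PSMD12 12.6 ± 0.756 FPKM. PSMD12, a lid subunit, was the only proteasome gene with 3 peaks, while PSME4 had a single peak of 151 bp.

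E2 enzymes reached high levels too. UBE2Q1, whose loss impairs the fertility of female mice, had 66.4, 72.8 and 68.1 FPKM and 2 peaks. UBE2G2 had 56.7, 64.4 and 59.7 FPKM. Every value of UBE2Q1 lay above every value of UBE2G2. UBE2E3 had 46.5, 44.3 and 44.1 FPKM and a lone 5' UTR class peak of 197 bp. UBE2O, an E2 that also acts as a ligase, had 3 exon class peaks and 22.4 ± 1.10 FPKM (SD, n = 3). UBE2K had 14.8 ± 1.74 FPKM, UBE2H 13.3 ± 1.24 FPKM and UBE2J1, a membrane-bound E2 needed for male fertility in mice, 7.90 ± 0.383 FPKM with 1 peak.

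Of the E1 enzymes, UBA3 had 31.3, 26.2 and 28.2 FPKM and UBA6 had 7.87, 8.25 and 9.04 FPKM, each with 1 exon class peak. Of the ligases, UBE3A had 11, 14 and 10.7 FPKM and UBE3C, a ligase that extends chains at the proteasome, 14.3, 11.3 and 12.0 FPKM, so the ranges of these ligases met.

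Leaving aside the USP48 and USP16 identifiers with other terms, OTUD5 was the highest deubiquitinase, although its own terms name only nucleus and cytoplasm. This X-linked gene, whose enzyme acts in interferon signalling and in development, had 48.6, 51.3 and 57.0 FPKM and 3 narrow peaks, 2 of them in the 3' UTR class (199 and 149 bp) and 1 annotated to exon 6 of 9 (149 bp). Merging peaks within 100 bp of each other joined the 3' UTR class pair of OTUD5. USP4, the highest of those with a ubiquitin term, had 44.9, 42.9 and 45.6 FPKM, with a pair of 3' UTR class peaks of 199 bp each. USP7, which acts on MDM2 and p53, had 38.3, 39.6 and 40.6 FPKM and 3 peaks, 1 of them a 5' UTR class peak of 31531 bp with 7123 bp inside the listed transcript. The lowest value of OTUD5 lay above the highest of USP4, and the lowest of USP4 above the highest of USP7.

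Lower in the order, USP47, a deubiquitinase of base excision repair, had 33.9 ± 4.19 FPKM (SD, n = 3) and 3 peaks, and BAP1, which takes ubiquitin off histone H2A, 28.1 ± 1.22 FPKM and 2 exon class peaks. USP1, known for the Fanconi anaemia pathway and for the upkeep of spermatogonia, had 25.3, 24.5 and 17.8 FPKM, lowest in TES7. USP8, an enzyme of endosomal sorting and of the acrosome, had 12.3 ± 0.564 FPKM, with 3 exon class peaks that covered 62.5% of its transcripts. UCHL5 (16.2 ± 1.55) and USP14 (7.85 ± 0.71), which both act on the 19S particle, had 1 and 2 peaks. OTUD4, UCHL3 (the identifier with deubiquitinase terms) and USP16 (likewise) lay between 12.1 and 13.7 FPKM. USP2 had 4.55 ± 0.916 FPKM with 1 peak, and USP44, a regulator of mitotic checkpoints, 1.80 ± 0.0605 FPKM with 3 peaks, so 3 peaks were listed both for OTUD5 and for a gene at the low end of FPKM. USP22, USP26, USP29, OTUB1, OTULIN and ATXN3 were of interest beforehand and had no listed peak. USP9Y, also of interest, had none either, but it is not among the named RefSeq symbols, so its absence cannot be read.

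In the SUMO pathway the proteases and ligases with a peak had modest FPKM. SENP2 stood first, with 28.0, 38.2 and 33.6 FPKM, followed by the ligase PIAS2, a gene with high testis expression in other mammals, with 19.6, 24.7 and 23.4 FPKM. Both were lowest in TES5. PIAS4 had 11.3 ± 1.14 FPKM (SD, n = 3), SENP1 10.01 ± 0.51 FPKM, SENP6 9.49 ± 1.01 FPKM and PIAS1 7.02 ± 0.738 FPKM, and the range of SENP6 met those of SENP1 and PIAS4.

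COP9 signalosome genes, whose complex takes NEDD8 off cullins, had COPS7A first with 46.4, 44.7 and 42 FPKM and COPS2 with the most peaks (2 in the exon class, at 21.7 ± 3.11 FPKM). COPS5, its catalytic subunit, was not listed. Among VCP cofactors UBXN4, a protein of the endoplasmic reticulum, had 37.1, 34 and 33.8 FPKM and 2 peaks. The identifier listed for VCP itself (ENSBGRG00000013622) had 2.13, 1.61 and 0.161 FPKM, a listed transcript of 1 exon and 2925 bp, no gene ontology term, and 3 peaks of 150 bp each between 59312595 and 59313240 on chromosome 7. Merging peaks within 100 bp of each other joined these 3 peaks. The values are given for that identifier only.

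Differences between the animals were small for most members. Over the 107 identifiers with an FPKM of at least 1 throughout, the median coefficient of variation was 9.71%, against 11.6% over all such identifiers with a peak. The highest animal was at least 1.5 times the lowest for 12 of the 107 (11.2%, 6.53% to 18.6%), against 17.8% of all. None of the 14 proteasome genes was among the 12. Of the deubiquitinase symbols USP9X, USP25 and OTUD7A were, the last on ENSBGRG00000016593, an identifier of 1 exon with galanin receptor terms, which had 1.21, 1.62 and 5.19 FPKM and the largest coefficient of variation of the 107 (81.9%). TES6 and TES7 were closest, with a median absolute log2 difference of 0.11, while TES5 differed from TES6 by 0.22 and from TES7 by 0.20. Over all identifiers with a peak the differences were 0.15, 0.21 and 0.22, and TES6 and TES7 were again the closest pair. The FPKM of all genes summed to 302365 in TES5, 280940 in TES6 and 285927 in TES7. These differences, ratios and coefficients of variation were taken without rescaling the libraries to equal sums.

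Among members with a mean FPKM of at least 10, 3 of the 5 with the largest spread were highest in TES5. UBXN6, a VCP cofactor of endosomal and lysosomal sorting, had the largest coefficient of variation of these (43.0%), with 27.6, 16.9 and 11.8 FPKM in TES5, TES6 and TES7. UBE2T, the E2 of the Fanconi anaemia pathway, had 13.5, 7.65 and 11.8 FPKM, and UBE2J2 had 30.2, 21.4 and 19.6 FPKM. USP9X, an X-linked deubiquitinase of broad function, had 13.8, 22.3 and 20.4 FPKM, and PSME3IP1, a partner of the activator PSME3, 10.8, 16.7 and 13.2 FPKM, so both were lowest in TES5. On FPKM as given, without rescaled libraries, the steadiest after PSMC3 were USP10 (coefficient of variation 2.14%) and USP21 (2.37%).

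Of the 12 members with a ratio of at least 1.5, 7 were highest in TES5 (58.3%, 32.0% to 80.7%), 2 in TES6 and 3 in TES7. Over all identifiers with such a ratio, TES5 was the highest for 44.7%, which lies within the members' interval. The libraries were not rescaled for these ratios, and the FPKM sum was highest in TES5. Members lay close to the limit on both sides, such as UBE2J2 at 1.54 (highest in TES5) and SENP8 at 1.49 (highest in TES6). The part of the library sums in these counts was not tested. Besides UBXN6, UBE2T and UBE2J2, the 7 were PSMC3IP, UBXN10, UBXN11 and UBE2U, and the last 3 of these were named after their values were seen. PSMC3IP (HOP2), which carries the letters of a proteasome gene but acts in meiotic recombination, had 7.35, 4.86 and 4.73 FPKM and 2 exon class peaks. UBE2U had 2.98, 1.88 and 1.17 FPKM, UBXN10 3.77, 2.63 and 2.15 FPKM and UBXN11 4.89, 4.0 and 2.55 FPKM. The 4 of 7 spermatocyte markers with a listed symbol (SYCP1, SYCP2, SYCP3 and MEIOB) summed to 53.7, 39.3 and 39.2 FPKM, also highest in TES5. SYCP2 entered this sum with all its listed identifiers, among them ENSBGRG00000024487 at 0 FPKM in every animal. From TES6 to TES7 the sum stayed nearly level, while UBE2T rose and the other members of the 7 fell. The part of spermatocytes in these members' levels was not tested. The 4 peritubular myoid markers summed to 287, 326 and 299 FPKM, the 3 Sertoli markers to 70.8, 81.5 and 76.1 FPKM, and the 4 spermatogonia markers to 27.1, 28.6 and 35.1 FPKM, so none of these sums was highest in TES5.

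**Figure D5:**
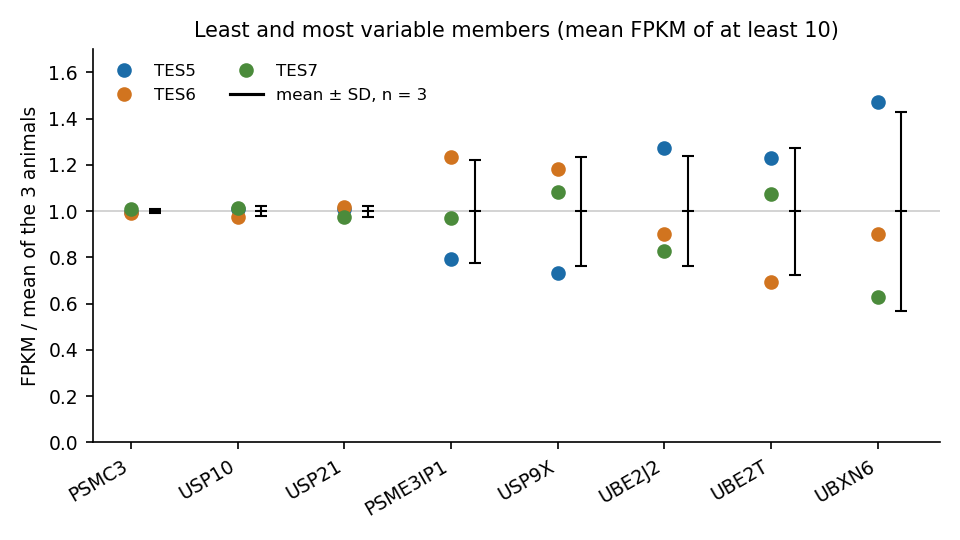
FPKM of the 3 animals, as given and not rescaled, divided by their mean (vertical axis) for the 3 least and the 5 most variable members with a mean FPKM of at least 10 (horizontal axis). Points are animals and black bars the mean ± SD (n = 3). The points of PSMC3, USP10 and USP21 lie close to 1, TES5 is highest for UBE2J2, UBE2T and UBXN6 and lowest for PSME3IP1 and USP9X.

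Members lay on 29 chromosomes, with 4 identifiers on X (OTUD5, PSMD10, USP27X and USP9X) and 0 on Y. No peak of a member overlapped a peak listed for another identifier. The exon named for a peak belonged to another identifier in 2 cases, on UBXN7 and USP35, and to a transcript without an identifier in 1, on USP27X.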

How the data were processed

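The peak list was made by the authors, per the paper's methods, by trimming with Trimmomatic, removal of ribosomal RNA with SortMeRNA, alignment with HISAT2 (2.0.4 in the submitters' processing notes) to LU_Bosgru_v3.0, peak calling with MeTDiff on IP against input and annotation with ChIPseeker. The methods speak of calling in each sample, but a single list serves the 3 animals. Peak start, end and width are in bp. The authors deposited FPKM for 20953 genes, 1 column for each input library. The program is not given in the sources used here. FPKM keeps no read numbers, so the depth behind a gene's value is unknown.

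Members were matched by symbol in the peak list and by identifier in the FPKM table. Peaks, classes and widths were counted, with Wilson 95% intervals. Means, SDs and coefficients of variation were taken over the 3 animals, the latter where FPKM reached 1 in all animals, and ranked at a mean of at least 10. Positions along a transcript used the peak's listed transcript and strand. The members, role groups and lists were chosen with earlier results of these data known. Genes were named by rule: the 10 with most peaks, the 10 highest in mean FPKM, the 5 most and 3 least variable, the 5 widest and 5 narrowest peaks, symbols on several identifiers, the leaders of each role group, a list of 53 genes of interest (30 had a peak), and members listed at 0. Genes outside the rule were named to spell out a count or after their values were seen. RefSeq names came from another assembly and were used for names and neighbours alone. No genome sequence was used here, and some members are not reported here by name. Counts were made in Python 3.11.15 with pandas 2.3.3 and numpy 2.4.6, and figures with matplotlib 3.10.9. The scripts were tested on simulated data. Alternatives were narrow peaks only, merged peaks, weighting by width, exons of the listed identifier only, expressed identifiers only, counting by symbol, another FPKM minimum or none, rescaled libraries, geometric means and each animal left out.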

Additional observations from a re-analysis of the deposited data

How the results depend on the processing

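No paired analysis was possible because no result compares IP with input libraries: peaks are not given per animal and FPKM is given for input alone. Counting peaks of at most 1000 bp alone, the exon class share was 64.3%, the 5' UTR class share 17.1% and the share of identifiers with a single peak 63.8%. Weighting peaks by width gave 9.98% for the 3' UTR and 20.2% for the 5' UTR class. The cause was not tested. Keeping the 57 identifiers with terms of the pathway, an alternative added after seeing the data, gave 40.4% with a single peak, 100% with an FPKM of at least 1 and a median FPKM of 14.0. Keeping 1 identifier per symbol, also added later, moved none of the shares, the median FPKM (13.3) or rho by more than their interval or spread. The median coefficient of variation was 5.42% without TES5 and at most 10.6% without another animal. Leaving out each animal gave 96.4% to 97.3% with an FPKM of at least 1, a median FPKM of 12.7 to 13.1 and a rho of -0.18 to -0.16. For the 71 named identifiers, rescaled libraries and geometric means moved no mean FPKM by more than its SD, and leaving out an animal cannot do so with 3 animals.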

Other observations

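Genes of the pathway outside the naming rule were read from a fixed list of 82, and the values here were picked after they were seen. Among ligases, HERC1 (ENSBGRG00000025007), a very large HECT-domain ligase, had 7 peaks, all in the exon class, at 6.44, 8.31 and 7.42 FPKM in TES5, TES6 and TES7, and HUWE1, its X-linked relative, 5 exon class peaks at 16.4, 23 and 24 FPKM. UBR2, a ligase needed for meiosis in male mice, had 3 peaks, all in the 3' UTR class, at 6.64 ± 0.318 FPKM (SD, n = 3). SAE1, a subunit of the SUMO E1, had 93.0 ± 3.46 FPKM and 1 exon class peak, while its partner UBA2 was not listed. ADRM1, the ubiquitin receptor of the 19S particle, had 55.0, 38.5 and 38.4 FPKM, highest in TES5. NFE2L1, the factor that raises proteasome gene transcription, had 61.6 ± 4.48 FPKM and 1 peak in each of the 3 classes.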
